A study of Homo sapiens with 24 samples.

Results

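Fedratinib was compared directly with pacritinib in HEL cells after 48 h of treatment, over all expressed genes. HEL is an established cell line from a human erythroleukaemia, driven by a mutant, constantly active JAK2, and it expresses red cell and platelet genes. It is 1 line, so the values describe that line only. The comparison used 4 of the 24 RNA-sequencing libraries of the series, 2 from cells given fedratinib at 500 nM for 48 h and 2 from cells given pacritinib at 500 nM for 48 h. The 2 libraries of cells given DMSO, the solvent control, for 48 h served as the level without inhibitor. The fedratinib, pacritinib and DMSO libraries of 4 h, with the inhibitors again at 500 nM, gave the same comparison early. Libraries of cells given the inhibitors ruxolitinib, momelotinib and itacitinib, also at 500 nM, were used for the spread between libraries and, at 48 h, for some comparisons of level. Each group had 2 libraries, so every value below rests on n = 2 per group, and the labels do not say whether these were separate cultures. P-values therefore set a difference only against the spread between libraries of the same group, pooled over all 24 libraries. That spread may be technical. Of 34213 genes in the count table, 16076 passed the filter on low counts and were tested.

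Both compounds inhibit the JAK2 kinase and the receptor kinase FLT3. Fedratinib is an open-chain anilinopyrimidine with a sulfonamide group and also binds the BET bromodomain proteins. Pacritinib is an anilinopyrimidine closed into a macrocycle and also inhibits the kinases IRAK1 and ACVR1. JAK2 phosphorylates STAT transcription factors, which switch on cytokines, survival genes and their own inhibitors of the CISH and SOCS family. Active JAK2 also feeds the RAS-ERK pathway, which induces EGR1, DUSP6 and other early genes. The BMP receptors, of which ACVR1 is 1, act through SMAD factors on the ID genes.

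Total counts of the 4 libraries were 32621857 to 39581506, within the range of all 24 libraries, 32153866 to 56618281. In a principal component analysis of the 12 libraries of 48 h, the second component (13.1% of the variance) placed the pacritinib libraries at -39.2 and -25.8, and the other libraries between -1.38 and 12.9. The mitochondrial rRNA genes took 0.0345 and 0.0436% of counts with fedratinib, 0.128 and 0.115% with pacritinib, and 0.0586 and 0.0912% with DMSO. This difference moved with the groups in every comparison below, and its part in the results was not tested. The cells had the defining genes of the line, with the tested globins summing to 3976 and 3266 CPM (counts per 1000000 counts of the library) with fedratinib and to 2676 and 2656 CPM with pacritinib. Some defining markers of other lineages were not detected, but other members of the same marker lists were. With fedratinib, monocyte and macrophage markers summed to 329 to 355 CPM, stem cell markers to 312 to 316 CPM and lymphoid markers to 54.5 to 55.2 CPM. Fibroblast and epithelial markers summed to 7.25 to 8.29 CPM. MS4A1 (B cells), MARCO (macrophages), S100A9 (monocytes and neutrophils), AVP and SPINK2 (stem cells) and PDGFRA (fibroblasts) had 0 counts in all 6 fedratinib, pacritinib and DMSO libraries of 48 h. A count of 0 allows up to 0.092 CPM in the shallowest library.

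By edgeR's quasi-likelihood test, 1928 genes differed between fedratinib and pacritinib at 48 h at an adjusted p under 0.05, here termed called. They were 12% of the genes tested. Of these, 1041 were higher with fedratinib (6.48%) and 887 lower (5.52%). Most differences were small: the median size among called genes was 0.31 on the log2 scale, and the 90th percentile was 0.778. Differences of at least 2-fold were found in 34 higher genes (0.211%) and 83 lower genes (0.516%). Protein-coding genes were called in 13.2% of 14109 cases and lincRNA genes in 2.39% of 1213, with a median log2 fold change (fedratinib over pacritinib) of -0.19 for the lincRNA genes against 0.007 for the protein-coding genes. Other noncoding classes were also seldom called, at 2.69% of misc_RNA, 4.14% of snoRNA, 3.03% of miRNA and 0% of snRNA genes. The part of expression level in these shares and medians was not tested. The count rested on both libraries of each group, and fell to 1292 and 1201 without fedratinib replicate 1 and 2, and to 1007 and 1303 without pacritinib replicate 1 and 2. For the level against solvent, fedratinib differed from DMSO in 1238 genes (7.7%), 588 higher (3.66%) and 650 lower (4.04%), a count that ran from 366 to 1002 when 1 library was left out. Pacritinib differed from DMSO in 2948 genes (18.3%), 1328 higher (8.26%) and 1620 lower (10.1%), and 1475 to 2208 in all when 1 library was left out. The comparisons with DMSO share their DMSO libraries, so they are given side by side only.

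**Figure D1:**
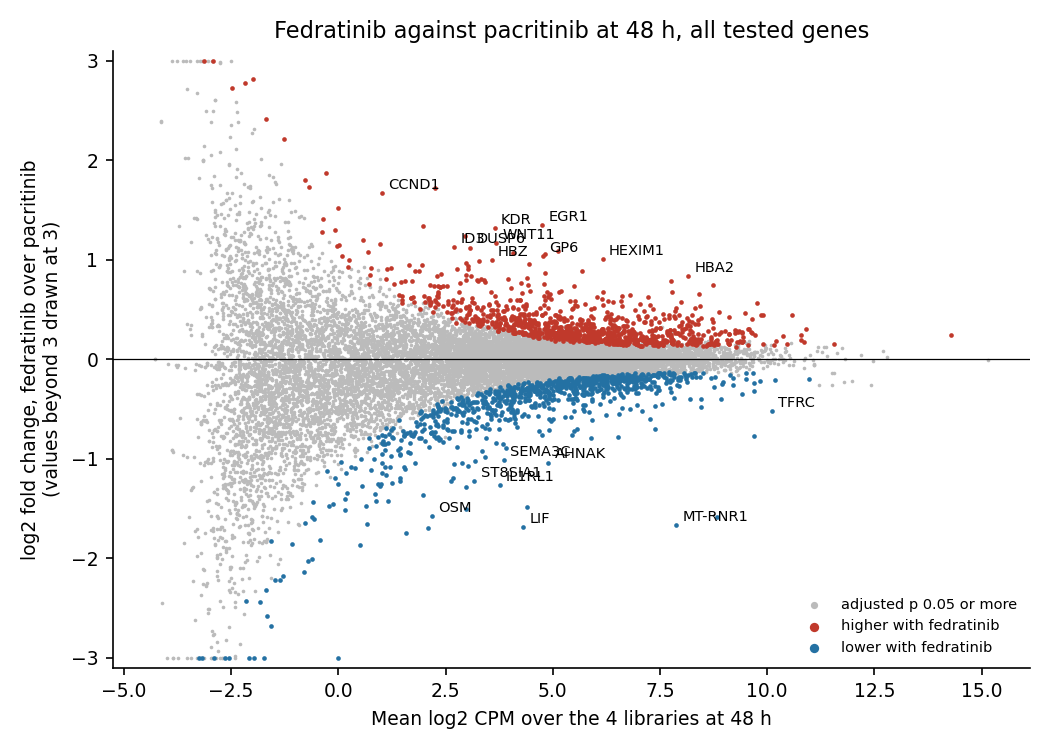
Mean log2 CPM over the 4 libraries at 48 h (x axis) against the log2 fold change of fedratinib over pacritinib (y axis), 1 point per tested gene; red and blue points passed an adjusted p under 0.05 as higher or lower with fedratinib. LIF, OSM and MT-RNR1 lie well below 0, and CCND1, EGR1, KDR and HEXIM1 lie well above it.

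Target genes of JAK-STAT signalling were split. LIF, a cytokine of the interleukin-6 family that STAT3 induces, had 12.2 and 10.03 CPM with fedratinib, 37.0 and 34.2 CPM with pacritinib, and 12.8 and 14.2 CPM with DMSO. Both pacritinib libraries stood far above the rest, and fedratinib did not differ from DMSO past the threshold (adjusted p = 0.203). The log2 fold change of fedratinib over pacritinib was -1.68 ± 0.12 (SE, adjusted p = 2.92e-11). OSM, the gene of the related cytokine oncostatin M, is its neighbour: LIF lies on chromosome 22 from 30240447 to 30246851 and OSM from 30262829 to 30266840 (GRCh38). OSM had 2.37 and 2.86 CPM with fedratinib, 7.54 and 8.04 CPM with pacritinib, and 3.23 and 2.89 CPM with DMSO (-1.57 ± 0.17, adjusted p = 3.87e-08). The pattern was that of LIF, with the pacritinib libraries alone raised among these 3 groups.

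The feedback inhibitors were also lower with fedratinib, by less. SOCS3, which blocks JAK kinases at cytokine receptors, had 32.1 and 31.3 CPM with fedratinib, 47.1 and 47.5 CPM with pacritinib, and 32.5 and 36.4 CPM with DMSO (-0.58 ± 0.12, adjusted p = 0.000842). SOCS2, which limits growth hormone and STAT5 signalling, had 20.1 CPM in both fedratinib libraries, 26.0 and 29.05 CPM with pacritinib, and 22.5 and 21.97 CPM with DMSO (-0.46 ± 0.08, adjusted p = 0.000194). The libraries of the inhibitors did not overlap for either gene, which is common with 2 libraries per group and is no added support. CISH, a direct STAT5 target, had 50.3 and 50.03 CPM with fedratinib, 60.7 and 58.9 CPM with pacritinib, and 44.4 and 44.6 CPM with DMSO (-0.25 ± 0.07, adjusted p = 0.0185). All 4 inhibitor libraries lay above DMSO for CISH, though fedratinib did not differ from DMSO past the threshold (adjusted p = 0.164), and the call between the inhibitors was lost whichever of the 4 libraries was left out (adjusted p = 0.0561 to 0.132). SOCS1 was not called: it had 7.59 and 5.13 CPM with fedratinib and 6.77 and 7.78 CPM with pacritinib, an overlap, and the 95% interval of its difference ran from -0.55 to 0.14. Its sign turned without fedratinib replicate 2 (0.06).

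The CISH promoter is shown as the example of a STAT target gene. Capitals mark TTCNNNGAA, the STAT motif, which reads the same on both strands and occurs 4 times, without overlap, in the 250 bases before and 50 after the start (RefSeq, GRCh38.p14, chr3:50611725-50612024, minus strand). It occurs in 7.88% of 27305 such promoters, and in 2 of the 15 promoters found for the 22 tested members of the list.
CISH: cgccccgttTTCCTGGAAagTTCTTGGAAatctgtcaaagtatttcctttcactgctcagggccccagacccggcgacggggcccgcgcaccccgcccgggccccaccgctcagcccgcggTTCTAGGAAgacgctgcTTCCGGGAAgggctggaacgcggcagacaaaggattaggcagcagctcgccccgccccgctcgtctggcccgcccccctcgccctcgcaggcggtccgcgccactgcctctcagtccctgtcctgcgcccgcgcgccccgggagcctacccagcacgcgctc

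Survival genes of the pathway differed little. PIM1, a kinase gene that STAT5 induces, had 560 and 545 CPM with fedratinib and 623 and 640 CPM with pacritinib (-0.19 ± 0.05, adjusted p = 0.014). Its call was lost without fedratinib replicate 2 (adjusted p = 0.116) or pacritinib replicate 2 (adjusted p = 0.106). BCL2L1, for the survival protein BCL-XL, went the other way, with 252 and 248 CPM with fedratinib, 207 and 203 CPM with pacritinib, and 212 and 218 CPM with DMSO (0.29 ± 0.04, adjusted p = 1.54e-05). PIM2 lay at the threshold and was not called (0.17 ± 0.06, adjusted p = 0.0511; 95% interval 0.05 to 0.29), but it was called under 6 of the alternatives, DESeq2 among them (adjusted p = 0.0455). MYC was not called either (0.11 ± 0.04, adjusted p = 0.0734; 95% interval 0.03 to 0.19), but was with DESeq2 (adjusted p = 0.0147) and with a replicate block (adjusted p = 0.048). JAK2 itself had 177 and 175 CPM with fedratinib and 171 and 162 CPM with pacritinib and was not called (95% interval -0.03 to 0.19). For PIM2, the widest of the 3 differences, the upper bound was 1.22-fold.

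In all, 12 of the 22 tested members of the JAK-STAT target list were called, 5 higher and 7 lower with fedratinib, where 12% of all genes were called. Their median log2 fold change was 0.05, against 0.002 over all genes. The 7 lower members became 4 without fedratinib replicate 2 or without pacritinib replicate 2. The higher members included ID1, CCND1 and GFI1B, which also stand on other lists below. Of 26 tested genes for JAKs, STATs and cytokine receptors, 4 were higher and 5 lower (median 0.03), and 1 was higher without pacritinib replicate 1 or without pacritinib replicate 2. Without pacritinib replicate 1, 3 were lower. IFNGR2, a chain of the interferon-gamma receptor, had 9.53 and 9.59 CPM with fedratinib and 14.9 and 14.2 CPM with pacritinib (-0.60 ± 0.11, adjusted p = 0.000194). CSF2RB, the shared chain of the GM-CSF and interleukin-3 receptors, was lower by less (-0.26 ± 0.05, adjusted p = 0.000437), as was the leptin receptor gene LEPR (-0.28 ± 0.06, adjusted p = 0.00203).

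Outputs of the ERK pathway were mostly higher with fedratinib. EGR1, an early transcription factor gene, had 46.2 and 39.7 CPM with fedratinib, 16.8 and 16.9 CPM with pacritinib, and 22.6 and 21.4 CPM with DMSO. The fedratinib libraries stood above both other groups, with a log2 fold change over pacritinib of 1.35 ± 0.12 (adjusted p = 1.48e-09) and over DMSO of 0.96 ± 0.12 (adjusted p = 1.18e-06). DUSP6, a phosphatase gene that ERK induces and that switches ERK off, had 12.3 and 12.4 CPM with fedratinib, 5.08 and 6.23 CPM with pacritinib, and 12.5 and 13.1 CPM with DMSO (1.12 ± 0.12, adjusted p = 3.58e-08). Here fedratinib lay at the DMSO level and pacritinib below it. CCND1, for cyclin D1, was low in all groups, at 3.26 and 3.83 CPM with fedratinib, 0.955 and 1.26 CPM with pacritinib, and 5.05 and 4.62 CPM with DMSO (1.67 ± 0.25, adjusted p = 1.61e-05).

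Of the 20 tested ERK outputs, 9 were higher with fedratinib and 1 was lower (50% called against 12% of all genes, median 0.16). The 9 became 5 without pacritinib replicate 1, and 0 were lower without fedratinib replicate 1 or pacritinib replicate 2. DUSP4 and FOS, both called, were weakly expressed at under 3 CPM with both inhibitors and each lost their call when 3 of the 4 libraries were left out in turn. The lower member was PHLDA1, with 5.02 and 6.35 CPM with fedratinib and 8.04 and 10.5 CPM with pacritinib (-0.71 ± 0.15, adjusted p = 0.00167). Its call was lost without fedratinib replicate 1 (adjusted p = 0.0534) or pacritinib replicate 2 (adjusted p = 0.106). The EGR1 promoter (RefSeq, GRCh38.p14, chr5:138465229-138465528, plus strand) is shown because EGR1 had the largest difference of the higher genes named by size. Capitals mark the CArG box, the motif of serum response factor, which was searched on both strands and occurs 2 times here without overlap. It occurs in 1.29% of the 27305 promoters, and in 1 of the 11 promoters found for the 20 tested members of the list.
EGR1: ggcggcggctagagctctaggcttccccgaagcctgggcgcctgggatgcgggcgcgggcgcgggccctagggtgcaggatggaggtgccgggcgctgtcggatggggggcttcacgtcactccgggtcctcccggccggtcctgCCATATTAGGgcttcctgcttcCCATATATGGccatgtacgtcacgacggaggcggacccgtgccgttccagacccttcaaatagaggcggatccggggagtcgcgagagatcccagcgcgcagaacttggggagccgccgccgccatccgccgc

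**Figure D2:**
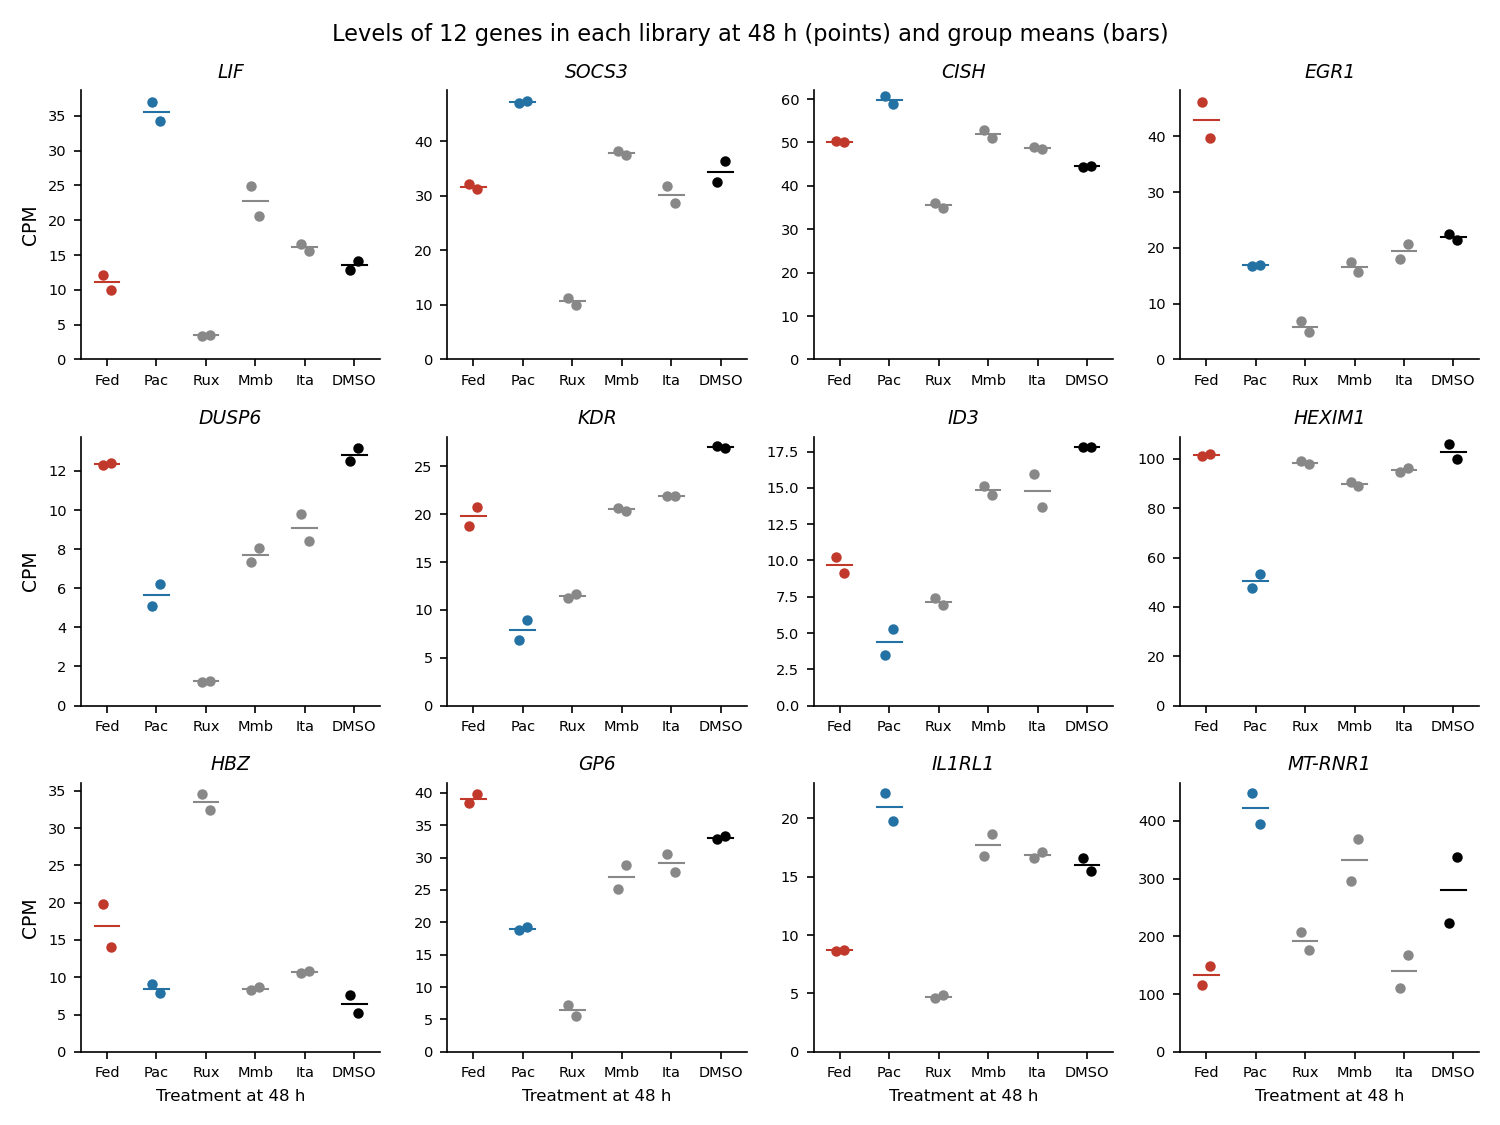
CPM (y axis, from 0) of 12 genes in each library of 48 h, by treatment (x axis): fedratinib (Fed), pacritinib (Pac), ruxolitinib (Rux), momelotinib (Mmb), itacitinib (Ita) and DMSO; points are the 2 libraries of a group and bars their mean. Pacritinib is the highest of the 6 treatments for LIF and the lowest for KDR, ID3 and HEXIM1, and fedratinib is the highest for EGR1.

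BMP-SMAD targets were higher with fedratinib. ID1, ID2 and ID3 encode inhibitors of helix-loop-helix transcription factors and are direct SMAD targets. ID3 had 10.3 and 9.11 CPM with fedratinib, 3.51 and 5.26 CPM with pacritinib, and 17.8 CPM in both DMSO libraries (1.13 ± 0.13, adjusted p = 2.74e-07). It lay below DMSO with both inhibitors, and farther below with pacritinib. ID2 had 12.4 and 15.2 CPM with fedratinib, 6.22 and 7.65 CPM with pacritinib, and 18.1 and 20.5 CPM with DMSO (0.99 ± 0.12, adjusted p = 3.27e-07). ID1 had 87.4 and 87.7 CPM with fedratinib, 50.7 and 64.0 CPM with pacritinib, and 85.1 and 90.7 CPM with DMSO (0.61 ± 0.07, adjusted p = 4.16e-07). For ID1, fedratinib could not be told from DMSO (adjusted p = 0.976). A further pair of feedback genes of the pathway were called: SMAD6, an inhibitory SMAD (0.36 ± 0.06), and BAMBI, a decoy receptor (0.44 ± 0.08). Of 10 tested list members, 6 were higher and 0 lower (60% called against 12% of all genes), with a median of 0.40.

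HEXIM1, which holds the elongation factor P-TEFb inactive and rises with BET inhibitors, had 101 and 102 CPM with fedratinib, 47.7 and 53.3 CPM with pacritinib, and 106 and 99.8 CPM with DMSO. Fedratinib lay at the DMSO level, and pacritinib well below it (fold of fedratinib over pacritinib 2.01; log2 1.01 ± 0.06, adjusted p = 2.90e-13). The other 3 inhibitors had 89.0 to 99.2 CPM at 48 h. TXNIP, a regulator of glucose uptake on the same list, had 68.8 and 69.4 CPM with fedratinib, 51.9 and 50.3 CPM with pacritinib, and 63.7 and 68.9 CPM with DMSO (0.44 ± 0.06, adjusted p = 4.22e-06). Of 13 tested genes known to rise with BET inhibitors, 6 were higher with fedratinib, 4 of them histone genes, and 1, HEXIM2, was lower (-0.42 ± 0.14, adjusted p = 0.0422, lost without any 1 of the 4 libraries). The share called was 53.8% against 12% of all genes, but their median was 0.06, so the list as a whole lay near 0. Against DMSO, 2 of the 13 were higher with fedratinib, and 1 was higher and 5 lower with pacritinib.

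The histone genes of the replication clusters differed broadly. Of 66 tested genes, 39 were higher with fedratinib and 1 was lower (60.6% called against 12% of all genes), with a median log2 fold change of 0.28. Against DMSO, 26 were higher and 0 lower with fedratinib, and 2 were higher and 14 lower with pacritinib. HIST1H2BH had 323 and 301 CPM with fedratinib, 211 and 207 CPM with pacritinib, and 250 and 234 CPM with DMSO (0.58 ± 0.06, adjusted p = 8.38e-09). HIST1H1D, a linker histone gene, had 85.4 and 89.2 CPM with fedratinib, 56.7 and 62.6 CPM with pacritinib, and 81.1 and 79.5 CPM with DMSO (0.55 ± 0.06, adjusted p = 1.02e-07). The fedratinib libraries were above the pacritinib libraries for both genes, and fedratinib lay above DMSO for HIST1H2BH. The lower gene, HIST1H1A, rested on 1 library: pacritinib replicate 2 had 6.23 CPM, and pacritinib replicate 1 0.0308 CPM, against 0.116 and 0 CPM with fedratinib. Without that library its log2 fold change was 0.77 (adjusted p = 0.883). Many histone genes are near-identical, so reads can be assigned to either copy and single values are uncertain. Of 40 replication genes on the G1/S list, 6 were higher and 0 lower (median 0.04), a share of 15% called, near the 12% of all genes. Fewer were higher when any 1 library was left out. RRM2, a subunit of ribonucleotide reductase, had 438 and 430 CPM with fedratinib and 353 and 361 CPM with pacritinib (0.28 ± 0.04, adjusted p = 1.06e-05). Of 35 mitosis genes, 3 were higher and 0 lower, a share of 8.57% called, and 1 was higher without fedratinib replicate 2 or pacritinib replicate 1.

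Globin genes were mostly higher with fedratinib, and 80% of the 10 tested were called in either direction, against 12% of all genes. HBA2, an adult alpha-globin gene, had 441 and 328 CPM with fedratinib, 227 and 204 CPM with pacritinib, and 159 and 152 CPM with DMSO (0.83 ± 0.10, adjusted p = 1.79e-07). HBA1 had 630 and 481 CPM with fedratinib, 338 and 323 CPM with pacritinib, and 249 and 250 CPM with DMSO (0.75 ± 0.10, adjusted p = 2.90e-06). HBA1 and HBA2 are near-identical, so their reads may have been shared between them. Both inhibitors differed from DMSO for HBA1 and HBA2, with larger values for fedratinib (1.31 ± 0.10) than for pacritinib (0.47 ± 0.10) at HBA2, and fedratinib replicate 1 was the highest library. HBZ, the embryonic zeta-globin gene, had 19.8 and 14.1 CPM with fedratinib, 9.08 and 7.83 CPM with pacritinib, and 7.65 and 5.26 CPM with DMSO (1.00 ± 0.14, adjusted p = 3.00e-06). HBE1, the embryonic epsilon-globin gene, had 301 and 256 CPM with fedratinib, 176 and 173 CPM with pacritinib, and 243 and 231 CPM with DMSO (0.67 ± 0.06, adjusted p = 3.16e-09). For HBE1 the groups stood in another order, with pacritinib below DMSO. HBG2, a fetal gamma-globin gene, had 2309 and 1983 CPM with fedratinib and 1720 and 1750 CPM with pacritinib (0.31 ± 0.06, adjusted p = 0.000597), and lost its call without fedratinib replicate 1 (adjusted p = 0.0635). Of 10 tested globins, 7 were higher and 1 lower with a median of 0.62, and without fedratinib replicate 1 4 were higher, with a median of 0.48. The lower one was not called without fedratinib replicate 2 or either pacritinib library.

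The rest of the red cell programme did not move with the globins. Of 21 tested genes of haem synthesis and iron, 5 were higher and 6 lower (52.4% called, median -0.05). Of 25 genes of the red cell membrane and skeleton, 4 were higher and 6 lower (40% called, median -0.09). The share called over all genes was 12%. The lower counts were not firm: the haem and iron list had 2 lower without fedratinib replicate 2 or pacritinib replicate 1, and 2 higher without pacritinib replicate 2. The membrane list had 3 lower without fedratinib replicate 2 and 2 without pacritinib replicate 1. TFRC, the transferrin receptor through which cells take up iron, had 920 and 927 CPM with fedratinib, 1370 and 1282 CPM with pacritinib, and 913 and 934 CPM with DMSO (-0.52 ± 0.05, adjusted p = 1.87e-09). Fedratinib lay at the DMSO level, and both pacritinib libraries above it. SLC40A1, which encodes the iron exporter ferroportin, had 105 and 106 CPM with fedratinib, 149 and 142 CPM with pacritinib, and 117 and 115 CPM with DMSO (-0.46 ± 0.05, adjusted p = 1.67e-08). The genes of iron uptake and iron export were thus lower together. UROD, an enzyme of haem synthesis (0.26 ± 0.05, adjusted p = 0.000422), and SLC25A37, the mitochondrial iron importer (0.23 ± 0.05, adjusted p = 0.000779), were higher with fedratinib. ALAS2, the first enzyme of haem synthesis in red cells, had 56.7 and 49.9 CPM with fedratinib and 45.8 and 37.7 CPM with pacritinib (0.35 ± 0.08, adjusted p = 0.00387). Its call was lost without fedratinib replicate 1 (adjusted p = 0.103) or pacritinib replicate 2 (adjusted p = 0.179). Among membrane genes, the blood group gene RHD (0.42 ± 0.05) and the protein 4.2 gene EPB42 (0.32 ± 0.05) were higher, and XK (-0.33 ± 0.05) and the adducin gene ADD2 (-0.35 ± 0.06) were lower.

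Platelet genes were mostly higher with fedratinib, with 11 of 28 tested members higher, 2 lower and a median of 0.19 (46.4% called against 12% of all genes). GP6, the collagen receptor of platelets, had 38.4 and 39.8 CPM with fedratinib, 18.8 and 19.2 CPM with pacritinib, and 32.8 and 33.3 CPM with DMSO (1.04 ± 0.08, adjusted p = 1.42e-10). ITGB3, the integrin beta-3 chain of the fibrinogen receptor, had 38.8 and 37.7 CPM with fedratinib, 22.4 and 19.6 CPM with pacritinib, and 24.6 and 26.1 CPM with DMSO (0.87 ± 0.09, adjusted p = 8.50e-09). GP1BA, a chain of the von Willebrand factor receptor, had 88.4 and 94.6 CPM with fedratinib, 55.6 and 58.7 CPM with pacritinib, and 91.5 and 85.3 CPM with DMSO (0.68 ± 0.05, adjusted p = 1.42e-10). SELP, the adhesion molecule P-selectin, had 37.1 and 38.1 CPM with fedratinib, 23.5 and 24.5 CPM with pacritinib, and 44.6 and 47.6 CPM with DMSO (0.65 ± 0.08, adjusted p = 9.04e-07). Pacritinib was the lowest of the 3 groups for all 4 genes, while fedratinib stood above DMSO for ITGB3 and below it for SELP. TREML1, a receptor of platelet granules, was weakly expressed and lost its call without fedratinib replicate 1 or pacritinib replicate 2 (adjusted p = 0.119 and 0.114). The 2 lower members became 1 when any 1 of the 4 libraries was left out.

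Markers of mast cells and basophils were lower with fedratinib. IL1RL1, the interleukin-33 receptor, had 8.66 and 8.75 CPM with fedratinib, 22.1 and 19.8 CPM with pacritinib, and 16.6 and 15.5 CPM with DMSO (-1.26 ± 0.09, adjusted p = 2.92e-11). MS4A2, a chain of the IgE receptor, had 7.97 and 7.12 CPM with fedratinib, 14.3 and 15.5 CPM with pacritinib, and 9.79 and 8.72 CPM with DMSO (-0.99 ± 0.11, adjusted p = 9.38e-08). CPA3, a protease of mast cell granules, had 22.6 and 28.0 CPM with fedratinib, 38.3 and 39.5 CPM with pacritinib, and 46.7 and 51.8 CPM with DMSO (-0.62 ± 0.08, adjusted p = 1.21e-06). DMSO stood between the inhibitors for IL1RL1 and MS4A2 and above both for CPA3. KIT, the stem cell factor receptor, had 36.5 and 38.3 CPM with fedratinib, 54.5 and 52.7 CPM with pacritinib, and 58.8 and 58.6 CPM with DMSO (-0.52 ± 0.06, adjusted p = 2.33e-07). HPGDS, for prostaglandin D synthase, was lower as well (-0.70 ± 0.11, adjusted p = 2.26e-05). Of 11 tested members 7 were lower and 0 higher (63.6% called against 12% of all genes), with a median of -0.52. The whole list of 12 summed to 1740 to 1780 CPM with fedratinib, 2020 to 2050 CPM with pacritinib and 1740 to 1750 CPM with DMSO, and 4 of its genes averaged under 1 CPM. IL1RL1, MS4A2, CPA3 and KIT, each at 7.12 to 54.5 CPM with the inhibitors, made up little of these sums. The sums thus mostly reflect other members of the list. Fewer cells of a type and less RNA per cell cannot be told apart in these libraries.

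The promoters of CPA3 and GP6 are shown as a lower mast cell gene and a higher platelet gene. Capitals mark AGATAA, bound by the factor GATA1 and its relatives. It was searched on both strands and occurs in 10.5% of the 27305 promoters, in 4 of the 9 promoters found for the mast cell list and in 3 of the 19 found for the platelet list. CPA3 has 2 matches (RefSeq, GRCh38.p14, chr3:148865046-148865345, plus strand) and GP6 has 1 (chr19:55038215-55038514, minus strand).
CPA3: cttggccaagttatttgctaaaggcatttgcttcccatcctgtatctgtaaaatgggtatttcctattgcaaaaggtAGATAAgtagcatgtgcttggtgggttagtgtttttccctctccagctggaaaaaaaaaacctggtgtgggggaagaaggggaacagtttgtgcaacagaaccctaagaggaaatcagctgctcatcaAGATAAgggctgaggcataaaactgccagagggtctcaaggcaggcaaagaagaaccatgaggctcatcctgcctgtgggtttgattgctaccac
GP6: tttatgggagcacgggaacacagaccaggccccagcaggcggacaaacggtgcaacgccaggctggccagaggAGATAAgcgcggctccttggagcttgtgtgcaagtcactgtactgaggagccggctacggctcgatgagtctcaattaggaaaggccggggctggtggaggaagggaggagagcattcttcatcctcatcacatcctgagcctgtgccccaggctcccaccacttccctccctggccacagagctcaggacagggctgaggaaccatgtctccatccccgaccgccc

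**Figure D3:**
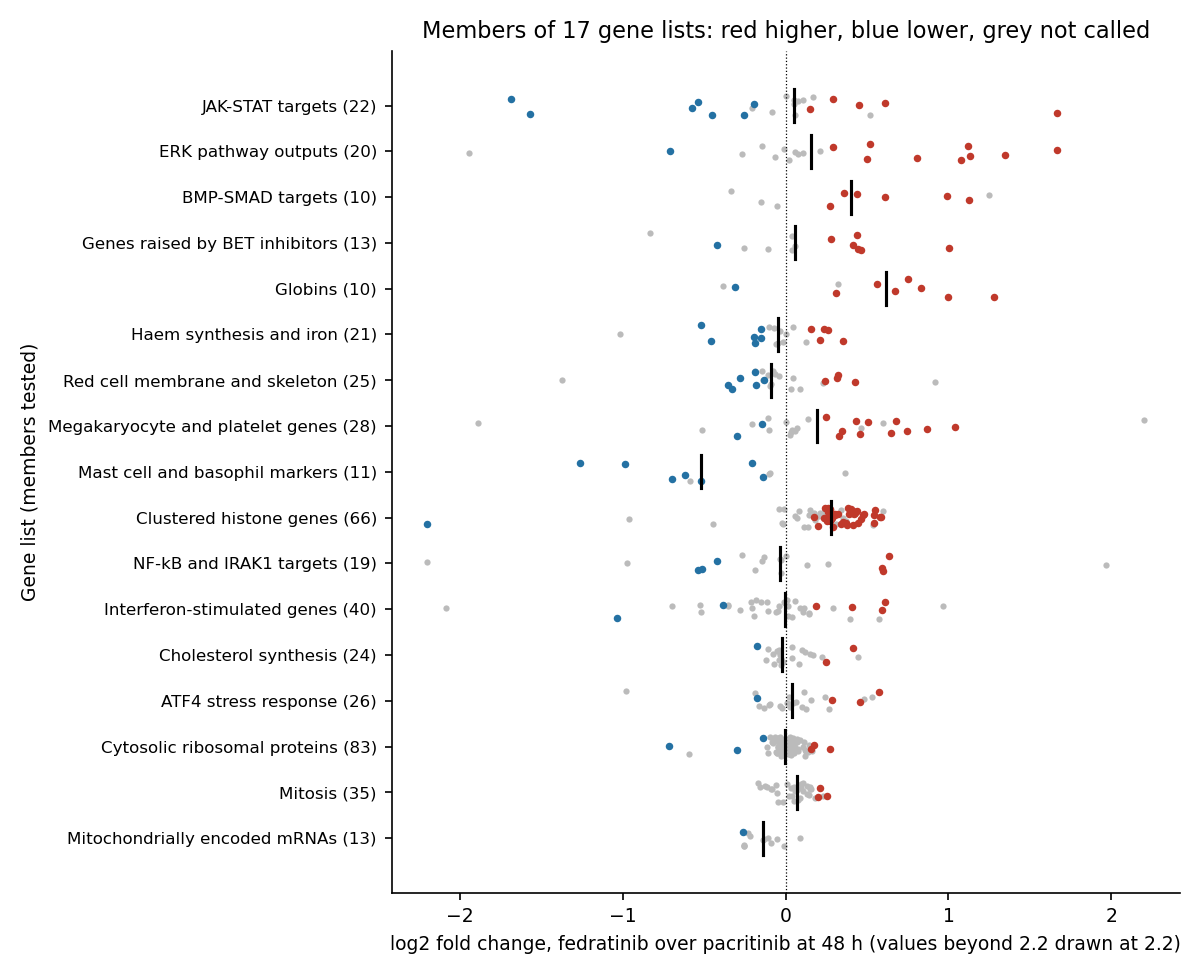
Log2 fold change of fedratinib over pacritinib at 48 h (x axis) for each tested member of 17 gene lists (y axis), with called members in red (higher) and blue (lower), others in grey, and the list median as a black bar. The globin and mast cell lists have the medians farthest from 0, at 0.62 and -0.52.

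Among transcription factors of the red cell and platelet lineages, 6 of 24 tested were higher and 5 lower (45.8% called against 12% of all genes, median -0.006). GFI1, a repressor of the myeloid and lymphoid lineages, had 4.53 and 3.90 CPM with fedratinib, 10.01 and 9.25 CPM with pacritinib, and 5.78 and 5.64 CPM with DMSO (-1.19 ± 0.12, adjusted p = 1.70e-08). Its relative GFI1B, which acts in red cell and platelet precursors, was higher, with 294 and 278 CPM with fedratinib, 205 and 214 CPM with pacritinib, and 278 and 259 CPM with DMSO (0.45 ± 0.06, adjusted p = 8.18e-07). The 2 relatives thus differed in opposite directions, and pacritinib lay farther from DMSO for both. ZFPM1, the GATA1 partner FOG1, was higher with fedratinib (0.43 ± 0.06, adjusted p = 9.43e-06), as was MEIS1 (0.37 ± 0.07, adjusted p = 0.000309), and ERG was lower (-0.41 ± 0.08, adjusted p = 0.000611).

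Among called markers of other lineages, more were lower than higher with fedratinib. The shares called were 41.7% for monocyte and macrophage, 50% for stem cell and 55.6% for lymphoid markers, against 12% of all genes. Of 12 tested monocyte and macrophage markers, 4 were lower and 1 higher (median -0.28). The integrin gene ITGAM had 13.6 and 14.2 CPM with fedratinib and 22.8 and 20.6 CPM with pacritinib (-0.64 ± 0.10, adjusted p = 3.48e-05), whereas AIF1 had 161 and 180 CPM with fedratinib and 120 and 132 CPM with pacritinib (0.44 ± 0.06, adjusted p = 1.18e-06). The markers summed to 329 to 355 CPM with fedratinib, 329 to 333 CPM with pacritinib and 369 to 374 CPM with DMSO, so their sums overlapped between the inhibitors. Of 8 tested stem cell markers, 3 were lower and 1 higher (median -0.26). Among these called markers, KIT also stands on the mast cell list, and ERG and MEIS1 on the list of red cell and platelet factors. The remaining one, THY1, had 164 and 158 CPM with fedratinib and 215 and 224 CPM with pacritinib (-0.45 ± 0.05, adjusted p = 5.16e-08). Of 9 tested lymphoid markers, 4 were lower and 1 higher (median -0.34). Without fedratinib replicate 2 or either pacritinib library 2 were lower, and without fedratinib replicate 2 or pacritinib replicate 1 0 were higher. NKG7, of cytotoxic lymphocytes, had 1.85 and 2.07 CPM with fedratinib, 4.43 and 4.00 CPM with pacritinib, and 3.55 and 3.99 CPM with DMSO (-1.10 ± 0.18, adjusted p = 3.48e-05). None of the 4 tested fibroblast and epithelial markers was called. The part of these lists in the other differences was not tested.

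Genes for surface and secreted proteins were among the 10 named by size in each direction, taken from called genes whose log2 CPM averaged 3 or more and whose libraries did not overlap. KDR, the VEGF receptor VEGFR2, had 18.8 and 20.8 CPM with fedratinib, 6.87 and 8.91 CPM with pacritinib, and 27.1 and 26.9 CPM with DMSO (1.32 ± 0.11, adjusted p = 1.78e-10). WNT11, a secreted WNT ligand, had 18.5 and 20.6 CPM with fedratinib, 6.59 and 10.6 CPM with pacritinib, and 18.8 and 19.1 CPM with DMSO (1.17 ± 0.13, adjusted p = 8.82e-08). ITGB5, the integrin beta-5 chain, had 53.2 and 47.8 CPM with fedratinib, 21.9 and 25.6 CPM with pacritinib, and 46.9 and 47.5 CPM with DMSO (1.08 ± 0.08, adjusted p = 6.19e-11). For WNT11 and ITGB5, fedratinib could not be told from DMSO (adjusted p = 0.882 and 0.538), while KDR lay between. The sodium-calcium exchanger gene SLC24A3 (1.06 ± 0.09, adjusted p = 2.08e-10) and SAMD14 (1.05 ± 0.09, adjusted p = 2.73e-10) completed the 10 genes named by size among those higher with fedratinib.

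Among the 10 named by size as lower, ST8SIA1, the sialyltransferase that makes the ganglioside GD3, had 5.98 and 5.77 CPM with fedratinib, 14.3 and 13.1 CPM with pacritinib, and 7.03 and 6.56 CPM with DMSO (-1.22 ± 0.12, adjusted p = 8.38e-09). SEMA3C, a secreted guidance factor, had 10.3 and 10.1 CPM with fedratinib, 21.9 and 19.3 CPM with pacritinib, and 9.49 and 10.2 CPM with DMSO (-1.01 ± 0.11, adjusted p = 2.38e-08). Of these 3 groups, pacritinib alone was raised for both genes, while ruxolitinib, at 21.7 and 23.6 CPM for ST8SIA1 and 19.97 and 24.4 CPM for SEMA3C, was also far above DMSO. AHNAK, a large scaffold protein gene, differed: it had 18.5 and 23.2 CPM with fedratinib, 38.9 and 46.8 CPM with pacritinib, and 42.0 and 40.6 CPM with DMSO (-1.04 ± 0.15, adjusted p = 7.19e-06). Here fedratinib was the low group and pacritinib lay at the DMSO level. WLS, the carrier that brings WNT proteins to the surface, lay on either side of DMSO, at 5.40 and 5.66 CPM with fedratinib, 12.5 and 10.8 CPM with pacritinib, and 8.41 and 9.07 CPM with DMSO (-1.07 ± 0.11, adjusted p = 3.15e-08). ARID5B, a chromatin factor gene, was lower by a like amount (-1.03 ± 0.13, adjusted p = 4.66e-07). The mitochondrial rRNA genes were in the same set: MT-RNR1 had 116 and 149 CPM with fedratinib, 449 and 395 CPM with pacritinib, and 223 and 338 CPM with DMSO (-1.67 ± 0.27, adjusted p = 5.22e-05), and MT-RNR2 gave -1.58 ± 0.23. MIR3648-1, in the ribosomal DNA repeats, completed them (-1.48 ± 0.26, adjusted p = 0.000173). The 20 genes named by size were picked from these same libraries, so leaving out 1 library is no separate test of these genes. FST, which encodes the activin inhibitor follistatin, was not among them because its mean log2 CPM of 2.99 lay just under that limit, with 4.27 and 5.08 CPM with fedratinib, 14.0 and 12.6 CPM with pacritinib, and 7.78 and 7.94 CPM with DMSO (-1.51 ± 0.12, adjusted p = 1.19e-10).

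Inflammatory and interferon genes showed no common direction. The shares called were 31.6% for NF-kB and IRAK1 targets and 33.3% for genes of antigen presentation, against 12% of all genes. Of 19 tested NF-kB and IRAK1 targets 3 were higher and 3 lower (median -0.03), with 1 lower without either fedratinib library or without pacritinib replicate 2. IL1B, for interleukin-1 beta, had 33.1 and 36.3 CPM with fedratinib, 20.5 and 25.1 CPM with pacritinib, and 54.2 and 48.7 CPM with DMSO (0.60 ± 0.08, adjusted p = 2.33e-06), so both inhibitors lay below DMSO. Of 40 interferon-stimulated genes 4 were higher and 2 lower, a share of 15.0% called (median -0.004). IFI6 had 37.9 and 38.8 CPM with fedratinib and 25.03 and 25.3 CPM with pacritinib (0.61 ± 0.07, adjusted p = 3.92e-07), and GBP1 had 5.11 and 5.08 CPM with fedratinib and 12.1 and 8.94 CPM with pacritinib (-1.04 ± 0.13, adjusted p = 4.95e-07). Of 15 genes of antigen presentation by MHC class I, 4 were higher and 1 lower (median 0.02). Without fedratinib replicate 1 or either pacritinib library 2 were higher, and without fedratinib replicate 2 or pacritinib replicate 1 0 were lower.

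Metabolic, growth and stress lists had shares called between 0 and 31.2%, against 12% of all genes, and most of their counts moved when a library was left out. None of 13 tested genes of fatty acid synthesis was called (1 was higher with no filter on low counts), and of 24 cholesterol synthesis genes 2 were higher and 1 lower (12.5% called, median -0.02), with 0 lower when any 1 library was left out and 1 higher without fedratinib replicate 2 or either pacritinib library. HMGCS1, for HMG-CoA synthase, had 73.4 and 73.2 CPM with fedratinib, 67.0 and 65.4 CPM with pacritinib, and 82.6 and 92.7 CPM with DMSO, and the inhibitors were not told apart (adjusted p = 0.112, 95% interval 0.03 to 0.27). Of 83 cytosolic ribosomal protein genes 3 were higher and 3 lower (7.23% called, median -0.001). Without fedratinib replicate 1 0 were higher and 0 lower, without fedratinib replicate 2 1 was lower, without pacritinib replicate 1 0 were lower and without pacritinib replicate 2 0 were higher. Of 37 nuclear genes of the respiratory chain 2 were higher and 3 lower (13.5% called), and 0 in either direction without pacritinib replicate 1. Without fedratinib replicate 1 or pacritinib replicate 2 1 was higher, and without fedratinib replicate 2 1 was lower. Of 39 genes of the MYC network and ribosome biogenesis 3 were higher and 2 lower (12.8% called), with 1 lower when any 1 library was left out, 1 higher without pacritinib replicate 2 and 6 higher with DESeq2. Of 38 lysosomal genes 1 was higher and 3 lower (10.5% called), with 1 lower without fedratinib replicate 2 or pacritinib replicate 1, 2 higher without pacritinib replicate 1, and 0 higher without fedratinib replicate 1 or pacritinib replicate 2. Of 26 ATF4 stress genes 3 were higher and 1 lower (15.4% called), with 1 higher without fedratinib replicate 2, 0 lower without fedratinib replicate 2 or pacritinib replicate 1, and 2 lower without pacritinib replicate 2. FBL, the rRNA methyltransferase fibrillarin, was called and kept its call when any 1 library was left out, with 324 and 327 CPM with fedratinib, 245 and 244 CPM with pacritinib, and 297 and 285 CPM with DMSO (0.41 ± 0.04, adjusted p = 4.73e-08). HSPA5, the main chaperone of the endoplasmic reticulum, had 579 and 565 CPM with fedratinib and 471 and 465 CPM with pacritinib (0.29 ± 0.04, adjusted p = 1.00e-05). Of 20 chaperone and unfolded protein response genes 4 were higher and 0 lower (20% called), and 2 were higher without fedratinib replicate 1 or either pacritinib library. Of 18 serine and one-carbon genes 0 were higher and 4 lower (22.2% called), with 1 lower without fedratinib replicate 2 and 0 without pacritinib replicate 1. Of 22 p53 targets 3 were higher and 2 lower (22.7% called), and 1 was lower when any 1 library was left out. FDXR, for ferredoxin reductase, had 23.0 CPM in both fedratinib libraries and 16.4 and 14.1 CPM with pacritinib (0.59 ± 0.08, adjusted p = 3.93e-06). Of 29 glycolysis and hypoxia genes 3 were higher and 3 lower (20.7% called; 5 higher without pacritinib replicate 2), among them NDRG1 (0.58 ± 0.10, adjusted p = 7.77e-05) and BNIP3, a mitophagy receptor (-0.49 ± 0.08, adjusted p = 3.48e-05). Of 20 tRNA synthetase genes 1 was higher and 3 lower (20% called), with 0 higher when any 1 library was left out, 1 lower without fedratinib replicate 2 and 0 lower without pacritinib replicate 1. Of 18 NRF2 and pentose phosphate genes 2 were higher and 1 lower (16.7% called), and 1 was higher without either fedratinib library or without pacritinib replicate 2. Of 13 genes for D-type cyclins, their kinases and inhibitors 1, CCND1, was higher and 0 lower (7.69% called; 2 higher with DESeq2), and of 15 BCL2 family genes 1 was higher and 1 lower (13.3% called), with 0 lower without fedratinib replicate 2 or pacritinib replicate 1. Of 16 receptor tyrosine kinase genes 3 were higher and 2 lower (31.2% called), and 1 was higher without pacritinib replicate 1. Of 13 mitochondrially encoded mRNAs 0 were higher and 1 lower (7.69% called, median -0.14), but 8 were lower with no filter on low counts, 6 when fewer libraries entered the fit, and 0 with DESeq2, without fedratinib replicate 1 or without either pacritinib library. Against DMSO, 10 of these 13 were higher with fedratinib and 13 with pacritinib.

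The same comparison at 4 h, in libraries that share none with those of 48 h, asked which differences were already there. At 4 h 4610 genes were called (28.7%), 2668 higher with fedratinib (16.6%) and 1942 lower (12.1%). Leaving out 1 library gave 2948 to 3824. Of the 1928 genes called at 48 h, 637 (33.0%) were called in the same direction at 4 h, which is 13.8% of the calls at 4 h, and 203 (10.5%) were called in the opposite direction. Over all tested genes, called at 48 h or not, 18.7% were called at 4 h with the sign of 48 h and 10% with the opposite sign. The share called in the opposite direction was thus near that of all genes. The sign was the same for 64.4% of the 1928, against 56.6% of all tested genes. A difference that itself changed between the times was called for 2733 genes (17%), 1178 as an increase (7.33%) and 1555 as a decrease (9.67%), with 831 of them among the 1928.

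Several genes of the ERK and BMP-SMAD lists were higher with fedratinib at both times. EGR1 had 39.0 and 38.6 CPM with fedratinib and 19.0 and 14.4 CPM with pacritinib at 4 h, a log2 difference of 1.22 ± 0.12, and its change between the times was not called (adjusted p = 0.676). WNT11 (1.17 ± 0.16 at 4 h) and KDR (0.95 ± 0.10 at 4 h) were likewise called at both times. HEXIM1 had 111 and 119 CPM with fedratinib and 32.7 and 27.6 CPM with pacritinib at 4 h (1.93 ± 0.06), a larger difference than at 48 h (change -0.92 ± 0.09, adjusted p = 4.15e-09). ID3 (1.91 ± 0.13 at 4 h) and DUSP6 (1.68 ± 0.13 at 4 h) were larger at 4 h as well, with called changes of -0.78 ± 0.19 and -0.56 ± 0.18.

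The feedback genes of JAK-STAT signalling changed sign. SOCS3 had 24.3 and 24.6 CPM with fedratinib, 18.2 and 9.89 CPM with pacritinib, and 33.4 and 32.1 CPM with DMSO at 4 h, so the difference was 0.80 ± 0.13 at 4 h and -0.58 ± 0.12 at 48 h. SOCS2 differed by 0.53 ± 0.08 at 4 h and CISH by 0.38 ± 0.08, both called. LIF, at 18.3 and 20.1 CPM with fedratinib and 15.1 and 11.6 CPM with pacritinib at 4 h (0.53 ± 0.12), also reversed, with a change of -2.21 ± 0.17 (adjusted p = 3.17e-10). Pacritinib was below fedratinib at 4 h and above it at 48 h for all 4 genes, and its 2 libraries of 4 h lay far apart for SOCS3. PHLDA1 had 38.9 and 35.9 CPM with fedratinib and 13.7 and 10.7 CPM with pacritinib at 4 h (1.62 ± 0.12), against the lower value with fedratinib at 48 h, a change of -2.33. The mitochondrial rRNA genes also reversed, with MT-RNR1 at 186 and 103 CPM with fedratinib and 50.5 and 76.2 CPM with pacritinib at 4 h (1.19 ± 0.28).

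Globins reversed in the other direction. At 4 h none of the 10 was higher with fedratinib and 7 were lower (median -0.38), and the change between the times was called as an increase for 8. HBA2 had 218 and 169 CPM with fedratinib and 265 and 243 CPM with pacritinib at 4 h (-0.39 ± 0.10). Ribosomal protein genes shifted as a list, with 73 of 83 lower and 1 higher at 4 h (median -0.22) and little difference at 48 h. For them the change was called as an increase in 52 genes and as a decrease in 1. SLC24A3 was lower with fedratinib at 4 h (-0.27 ± 0.08) and higher at 48 h, whereas the mast cell gene MS4A2 was lower at both times (-1.34 ± 0.10 at 4 h). IL1RL1 differed mainly at 48 h (-0.22 ± 0.08 at 4 h), with a change of -1.05 ± 0.12 (adjusted p = 5.04e-07).

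**Figure D4:**
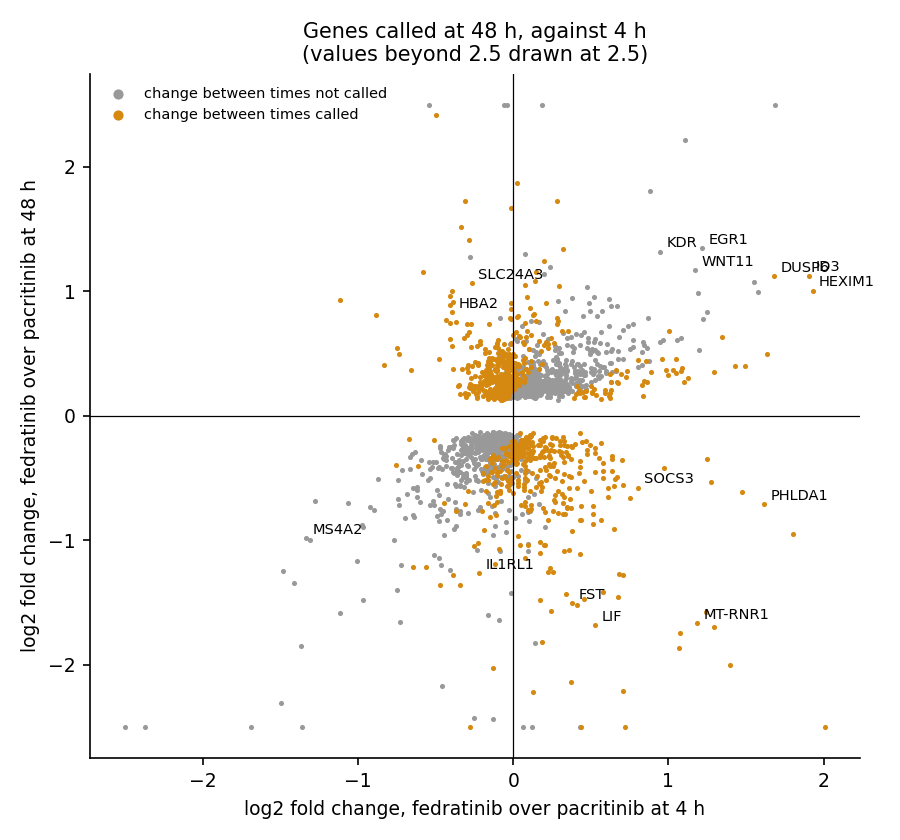
Log2 fold change of fedratinib over pacritinib at 4 h (x axis) and at 48 h (y axis) for the 1928 genes called at 48 h; orange points had a called change between the times. EGR1, KDR and WNT11 lie in the upper right, LIF, SOCS3 and PHLDA1 in the lower right, and HBA2 and SLC24A3 in the upper left.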

How the data were processed

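RNA of HEL cells treated with DMSO or 1 of 5 JAK inhibitors was sequenced in 24 libraries, 2 for each of 12 groups. The authors deposited raw read counts per gene. Per the submitters' processing notes, bcl2fastq, STAR 2.5.1a, the GRCh38 build and edgeR were used. Which tool and annotation gave the counts, and whether strand was used, is not given in the sources used here, so reads of overlapping and antisense genes cannot be told apart. All 24 count columns of the libraries were used, and 0 were left out.

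From the deposited counts, edgeR 4.0.16 in R 4.3.3 fitted 1 mean per group over the 24 libraries, after filterByExpr (16076 of 34213 genes kept) and TMM scaling. Each contrast was tested with glmQLFTest, with Benjamini-Hochberg adjustment over all genes tested, and called at an adjusted p under 0.05. CPM uses TMM library sizes, and ± gives the standard error of a log2 fold change. The 95% intervals use the same fit. The method was tried on simulated counts of independent libraries, which cannot show whether the 2 libraries of a group were separate cultures. Coordinates are from GENCODE 29.

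Genes named were the 10 largest called differences per direction whose log2 CPM averaged 3 or more and whose libraries did not overlap, up to 5 called members per list, 15 fixed genes, and the 6 largest changes per direction between the times. The comparison and the gene lists were chosen with earlier results of these data known. Alternatives were DESeq2 1.42.0, RLE scaling, no and a stricter filter, fewer libraries in the fit, a replicate block, leaving out each library, and protein-coding genes only, the last chosen after seeing the data. The text describes 89 of the 176 genes that this rule took.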

Additional observations from a re-analysis of the deposited data

Results flagged for a closer look

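For 65 of the 89 genes named above from the stated rule, the difference between fedratinib and pacritinib itself changed between the times, by edgeR's test of the time interaction over all genes at an adjusted p under 0.05. The values in parentheses are the log2 fold change of fedratinib over pacritinib at 48 h minus that at 4 h. Of all 16076 genes tested, 17% changed in this way, and of the 1928 genes called at 48 h 43.1% did. Most of the 89 were named for a call at 48 h, whose values also enter this change. The rule took some others for the size of this change, so the choice of genes alone can raise the count.

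The value at 48 h was the lower one for 36 genes. The changes of at least 2-fold were in MT-RNR1 (-2.85), MT-RNR2 (-2.83), PHLDA1 (-2.33), LIF (-2.21), FST (-1.88), OSM (-1.81), MIR3648-1 (-1.66), SOCS3 (-1.38), SOCS1 (-1.37), NKG7 (-1.27), SEMA3C (-1.18), GBP1 (-1.13), AHNAK (-1.08), GFI1 (-1.07) and IL1RL1 (-1.05). Changes of a smaller size were in SOCS2 (-0.98), WLS (-0.98), HEXIM1 (-0.92), ARID5B (-0.80), ID3 (-0.78), KIT (-0.73), IFNGR2 (-0.71), BNIP3 (-0.64), CISH (-0.63), ERG (-0.62), ST8SIA1 (-0.57), DUSP6 (-0.56), HPGDS (-0.54), CPA3 (-0.54), ITGAM (-0.53), PIM2 (-0.51), THY1 (-0.36), ADD2 (-0.35), TFRC (-0.33), PIM1 (-0.28) and SLC40A1 (-0.27).

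The value at 48 h was the higher one for 29 genes. The changes of at least 2-fold were in CCND1 (1.68), HBZ (1.397), SLC24A3 (1.33), HBA2 (1.23), TREML1 (1.15) and HBA1 (1.12). Changes of a smaller size were in SAMD14 (0.98), HBE1 (0.96), ITGB5 (0.95), ITGB3 (0.76), GP6 (0.74), IFI6 (0.71), RHD (0.65), SELP (0.65), FBL (0.58), HBG2 (0.58), EPB42 (0.56), ALAS2 (0.56), TXNIP (0.53), AIF1 (0.52), SLC25A37 (0.44), ZFPM1 (0.44), IL1B (0.44), UROD (0.42), FDXR (0.38), GP1BA (0.37), HIST1H2BH (0.35), BAMBI (0.33) and MYC (0.25).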

How the results depend on the processing

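The 1928 calls between fedratinib and pacritinib at 48 h became 1851 to 2100 under the alternatives that kept all 24 libraries in the fit, 1744 with only the groups compared and 2256 with only the 12 libraries of 48 h, and no gene called in both had the opposite sign. Deviations from the group means of same-numbered fedratinib and pacritinib libraries correlated at -0.002 at 48 h and -0.02 at 4 h. These values showed no pairing by replicate number but cannot exclude a batch shared by some libraries, and the replicate block gave 2100 calls against 1928. With only 1 library left in a group, which is then assumed to vary like the other groups, the count was 1007 to 1303, with 578 to 700 higher and 429 to 627 lower. Left out in the same way, the counts were 2948 to 3824 between the inhibitors at 4 h, 1833 to 2405 for the change between the times, 366 to 1002 for fedratinib against DMSO and 1475 to 2208 for pacritinib against DMSO.

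The rule took 176 genes, of which 170 were called between the inhibitors at 48 h. Leaving out each library in turn gave 680 values for these 170, of which 494 kept the call, 185 lost it and 1 changed sign. Under the other alternatives 1326 values kept the call and 28 lost it. The change of sign was in HIST1H1A, whose fitted log2 fold change ran from -9.94 to 0.77 (0.77 without pacritinib replicate 2). SOCS1, not called, ran from -0.50 to 0.06. PIM2 was called under 6 alternatives (adjusted p = 0.0136 to 0.049) and MYC with DESeq2 (adjusted p = 0.0147) and the replicate block (adjusted p = 0.048); neither was called when a library was left out. Counting error is small at these depths for most genes named, and the number of libraries limits the precision.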
